A study of Homo sapiens with 12 samples.

Results

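The Toll-like receptors and their partner proteins were followed in SZ95 cells, an immortalised line of human sebocytes (cells of the sebaceous gland), across 4 groups of 3 Affymetrix whole-transcript arrays. The set holds 9 genes: TLR1, TLR2, TLR3, TLR4, TLR5 and TLR6, the co-receptors CD14 and LY96 (MD-2), and the adaptor MYD88. They were chosen by symbol: a gene counted as measured when the probe annotation gave a probe set that single symbol. On this rule 8 of the 9 were measured, each by 1 probe set, among 18417 genes tested, and TLR5 was not analysed here. All cells were transfected with lipofectamine 2000. The first group received scramble siRNA and no further treatment, and the second scramble siRNA followed 24 h later by 25 µg/ml UV-oxidized PAPC (UV-PAPC). The third and the fourth group received siRNA against OLR1, without and with the same UV-PAPC treatment. PAPC is a phosphatidylcholine carrying arachidonic acid, and OLR1 encodes LOX-1, a scavenger receptor for oxidized low-density lipoprotein. The labels name no vehicle, no unoxidized PAPC and no untransfected cells, so the response to UV-PAPC is the difference from untreated transfected cells. The purpose of each comparison is not stated beyond these conditions.

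Among the measured members TLR4 had the largest difference in each of the 4 comparisons between groups. It rose with UV-PAPC under both siRNAs and fell with OLR1 siRNA in both treatments. TLR3 fell with UV-PAPC under both siRNAs, less firmly under OLR1 siRNA. TLR6 and, less firmly, TLR1 fell with UV-PAPC under scramble siRNA. For no member was the UV-PAPC response called different between the siRNAs. TLR2, CD14, LY96 and MYD88 passed the test in no comparison.

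Toll-like receptors recognise microbial and endogenous danger molecules. TLR2 pairs with TLR1 or TLR6 to bind lipoproteins at the cell surface. TLR4 binds lipopolysaccharide with LY96, helped by CD14, and TLR3 binds double-stranded RNA in endosomes. MYD88 carries the signal of all of these receptors except TLR3, whose adaptor TRIF (TICAM1) also serves TLR4. The MYD88 arm leads to NF-kB and cytokines such as IL-1, and the TRIF arm to type I interferon and the genes it induces. In skin, sebocytes and keratinocytes carry several Toll-like receptors, and oxidized phospholipids are known to interact with TLR2, TLR4, CD14 and LY96.

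The authors' values are log2 signals, in which 1 unit is a doubling of signal. Levels of different probe sets are not on one scale, so each test compared a gene only with itself across arrays. Levels of different probe sets were set side by side only as a rough guide to dim signals and for marker lists. As a guide to dim probe sets, 361 olfactory receptor genes, which skin cells hardly express, had a median mean signal of 3.62 and a 95th percentile of 4.92. TLR3, TLR4 and MYD88 lay above all of these genes. TLR6 (mean 5.06) and CD14 (mean 5.10) lay just above their 95th percentile. TLR1 (4.32), TLR2 (4.39) and LY96 (3.10) lay below it and are called dim in what follows.

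The targeted gene followed the labels. The log2 signals of OLR1 were 6.18, 5.56 and 5.35 in scramble untreated arrays and 6.19, 5.49 and 5.74 in scramble UV-PAPC arrays. With OLR1 siRNA they were 4.66, 4.38 and 4.48 in untreated and 4.47, 4.33 and 4.41 in UV-PAPC arrays. Each OLR1 siRNA array lay below each scramble array. All 13 measured sebocyte and epithelial markers, KRT5, KRT8 and EPCAM among them, had mean signals above 4.92. The leukocyte gene PTPRC, present on all white blood cells, read 3.12 to 3.47 on all 12 arrays, below the median of the olfactory receptor genes. Of 12 monocyte and macrophage markers 6 lay above 4.92, and the list's mean level was 4.93 to 5.01 over the 12 arrays, with group ranges that overlapped. None of the 12 passed a UV-PAPC comparison, and 1, the lysosomal gene CD68, passed both OLR1 siRNA comparisons, by 0.40 (adjusted p = 0.00409) and 0.44 (adjusted p = 0.00187, both limma). This is 8.33% of the list, against 9.71% and 12.5% of all genes. The endothelial cadherin CDH5 was also higher with OLR1 siRNA, by 0.65 and 0.50, as was the melanocyte factor MITF, by 0.26 and 0.43, while the mean levels of their lists were 4.70 to 4.86 and 5.30 to 5.45 over the arrays. Above 4.92 lay 1 of 7 endothelial, 3 of 5 melanocyte, 4 of 8 fibroblast and 2 of 5 lymphocyte markers. No fibroblast marker passed a comparison. The lymphocyte marker CD8A was lower with OLR1 siRNA in UV-PAPC cells (difference -0.29, limma adjusted p = 0.0187). MITF was lower with UV-PAPC under scramble siRNA (difference -0.23, limma adjusted p = 0.0319). The part of these markers in the results for TLR4 was not tested. Of the 13 sebocyte and epithelial markers 1 was higher and 2 were lower with UV-PAPC under each siRNA. This is 23.1% of the list, against 7.31% and 6.71% of all genes. The lipid droplet gene PLIN2 rose by 0.58 and 0.67, and PPARG fell, with differences of -0.47 and -0.35. CDH1 fell under scramble siRNA (difference -0.24, limma adjusted p = 0.0296) and MUC1 under OLR1 siRNA (difference -0.34, limma adjusted p = 0.0435). None of the 13 passed an OLR1 siRNA comparison. Across all genes, arrays of 1 group correlated at 0.996 to 0.998 and arrays of different groups at 0.988 to 0.995. The third scramble UV-PAPC array was the lowest of its group for 6 of the 8 members and for 44.7% of all genes. The second scramble untreated array was also lowest for 6 of the 8, but for 30.8% of all genes. The third OLR1 siRNA untreated array and the second with UV-PAPC were each lowest for 5 (35.7% and 39.2% of all genes).

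TLR4 (Entrez 7099, chr9:117704403-117724735 in GRCh38.p14) had log2 signals of 7.61, 7.50 and 7.52 in scramble untreated arrays. With UV-PAPC under scramble siRNA they were 8.60, 8.45 and 7.98. All 3 treated arrays were above all 3 untreated ones, and the third treated array was clearly the lowest of its group. The difference was 0.80 on the log2 scale (SE 0.12, 95% interval 0.54 to 1.05), which is 1.74-fold (1.46 to 2.08), with adjusted p = 0.000501 in the limma fit across all genes. Under OLR1 siRNA the untreated arrays read 6.91, 6.81 and 6.94 and the UV-PAPC arrays 7.81, 7.55 and 7.66. Again the 2 groups did not overlap. This difference was 0.79 (SE 0.12, 95% interval 0.53 to 1.04), or 1.72-fold, with limma adjusted p = 0.00057.

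OLR1 siRNA lowered TLR4 in both treatments. In untreated cells the OLR1 siRNA group was 0.66 below the scramble group on the log2 scale (SE 0.12, difference -0.66, 95% interval -0.91 to -0.40, 1.58-fold, limma adjusted p = 0.00221). In UV-PAPC cells the difference was -0.67 (SE 0.12, 95% interval -0.93 to -0.42, 1.59-fold, limma adjusted p = 0.00206). The 4 group means stood in the order OLR1 siRNA untreated (6.89 ± 0.067), scramble untreated (7.54 ± 0.057), OLR1 siRNA with UV-PAPC (7.67 ± 0.135) and scramble with UV-PAPC (8.34 ± 0.325, SD, n = 3 each). The middle pair overlapped, with 7.50 to 7.61 in scramble untreated arrays and 7.55 to 7.81 in OLR1 siRNA arrays with UV-PAPC. The other neighbours in this order did not overlap. The UV-PAPC response of TLR4 differed between the siRNAs by -0.01 (95% interval -0.37 to 0.35, limma adjusted p = 0.995). Without the third scramble UV-PAPC array it was -0.20.

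The RefSeq promoters of the 3 members with the largest responses are shown because the genes moved in opposite directions: TLR4 rose and TLR3 and TLR6 fell. Each runs 5′ to 3′ on the gene's strand, from 250 bases before to 50 after the start of transcription (GRCh38.p14), at chr9:117704153-117704452 for TLR4 on the plus strand, chr4:186068906-186069205 for TLR3 on the plus strand and chr4:38856768-38857067 for TLR6 on the minus strand, where the start lies inside the span annotated for the gene. Capitals mark matches to the motifs searched.
TLR4: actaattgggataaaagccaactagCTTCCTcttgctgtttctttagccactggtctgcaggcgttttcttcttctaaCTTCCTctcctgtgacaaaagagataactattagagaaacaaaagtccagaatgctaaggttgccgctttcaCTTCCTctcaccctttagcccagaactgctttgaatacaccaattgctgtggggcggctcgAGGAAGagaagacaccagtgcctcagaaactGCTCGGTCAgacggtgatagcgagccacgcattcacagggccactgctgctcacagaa
TLR3: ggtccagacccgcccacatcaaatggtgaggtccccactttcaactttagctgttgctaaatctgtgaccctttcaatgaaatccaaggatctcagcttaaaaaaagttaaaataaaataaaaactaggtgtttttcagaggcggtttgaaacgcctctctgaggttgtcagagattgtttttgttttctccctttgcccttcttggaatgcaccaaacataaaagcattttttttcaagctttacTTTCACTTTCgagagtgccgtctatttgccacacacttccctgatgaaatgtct
TLR6: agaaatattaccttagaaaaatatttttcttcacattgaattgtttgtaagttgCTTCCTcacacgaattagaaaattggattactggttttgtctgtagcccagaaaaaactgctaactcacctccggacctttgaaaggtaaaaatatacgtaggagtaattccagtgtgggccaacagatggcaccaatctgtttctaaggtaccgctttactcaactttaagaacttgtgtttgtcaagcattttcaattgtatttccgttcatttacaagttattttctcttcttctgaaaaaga
Both strands were searched for the NF-kB site (GGG, any 2 bases, TTTCC), the AP-1 site TGANTCA, the antioxidant response element TGACNNNGC, the heat shock element GAANNTTC, the ETS core AGGAAG and the interferon element (GAAA, any 2 bases, GAAA), where N is any base. In these windows the TLR4 promoter held 4 ETS cores, at positions -225, -172, -100 and -39 from the start, and 1 antioxidant response element at -8. TLR3 held 1 interferon element at -4, and TLR6 1 ETS core at -196. No match to the NF-kB, AP-1 or heat shock letters was found in any of the 3. Of 35116 promoters of this length, 33.6% held the ETS core, 13.3% the antioxidant response element, 7.71% the AP-1 site, 6.77% the heat shock element, 3.57% the interferon element and 1.91% the NF-kB site. Among the other members, CD14 held 3 ETS cores and 1 AP-1 site, MYD88 1 ETS core and 1 interferon element, and TLR2 1 ETS core. A match is a run of letters and not evidence of binding.

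**Figure D1:**
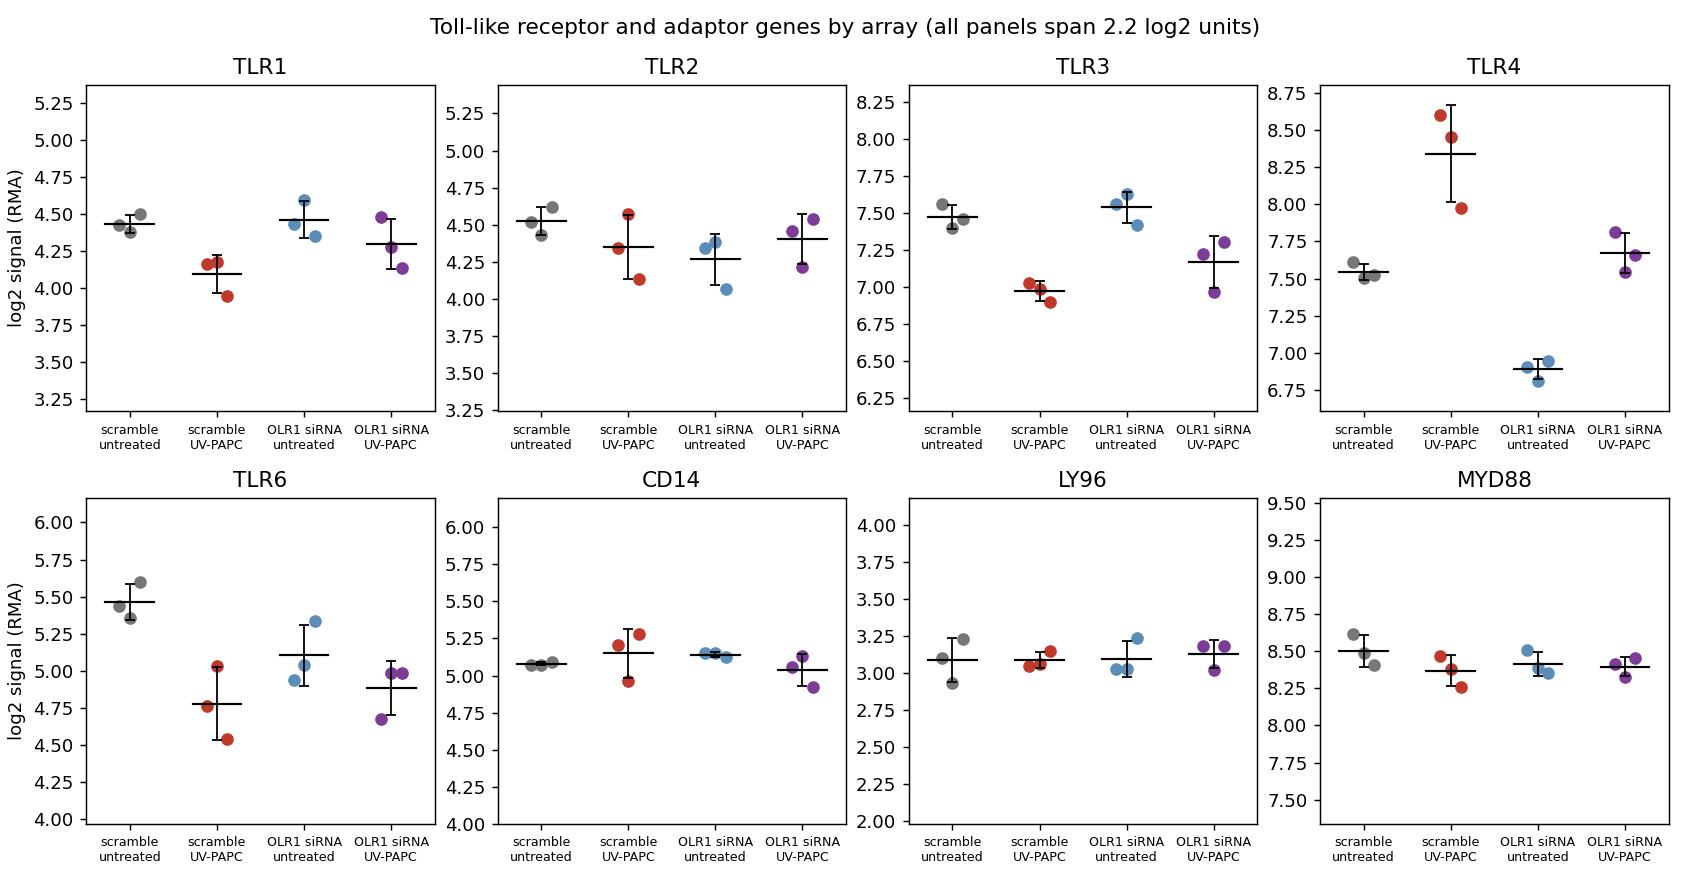
Log2 signal (vertical axis) of the 8 measured genes on each of the 12 arrays, by group; points are arrays, horizontal lines are group means and bars are SD (n = 3). Each panel spans the same range of log2 units, so the steps of TLR4, from a mean of 6.89 in untreated cells with OLR1 siRNA to 8.34 in scramble cells with UV-PAPC, can be set beside the even MYD88; LY96 (mean 3.10) lies below the olfactory receptor median of 3.62, so its flat panel shows no level of RNA.

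TLR3 (Entrez 7098, chr4:186069156-186088073) read 7.56, 7.39 and 7.46 in scramble untreated arrays and 7.03, 6.99 and 6.90 in scramble UV-PAPC arrays. The groups did not overlap, and the spread within each was small (SD 0.083 and 0.067). TLR3 fell by 0.50 on the log2 scale (SE 0.088, difference -0.50, 95% interval -0.69 to -0.31, 1.41-fold, limma adjusted p = 0.00183). Under OLR1 siRNA the untreated arrays read 7.56, 7.63 and 7.42 and the UV-PAPC arrays 7.22, 6.97 and 7.31. These groups did not overlap either, and the difference was -0.37 (SE 0.088, 95% interval -0.56 to -0.18, 1.29-fold, limma adjusted p = 0.0167). This second call rested on few arrays. Without OLR1 siRNA untreated replicate 1 the difference was -0.36 (adjusted p = 0.0617), without untreated replicate 2 it was -0.32 (adjusted p = 0.0829), and without UV-PAPC replicate 2 it was -0.27 (adjusted p = 0.0788, all limma). It also missed the threshold when only the 6 arrays compared were fitted (adjusted p = 0.0566) and when all table entries were tested (adjusted p = 0.0512, both limma). The 2 UV-PAPC responses of TLR3 differed by 0.13 (95% interval -0.13 to 0.40).

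OLR1 siRNA itself left TLR3 without a call. In untreated cells the difference was 0.06 (limma adjusted p = 0.734), and in UV-PAPC cells it was 0.19 (limma adjusted p = 0.161). The latter passed the threshold without OLR1 siRNA UV-PAPC replicate 2, at 0.29 (limma adjusted p = 0.0336).

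TLR6 (Entrez 10333, chr4:38822897-38868390) and TLR1 (Entrez 7096, chr4:38787569-38805644), which each pair with TLR2, are close paralogs that lie side by side on chromosome 4. Probes of one may read RNA of the other, so the signal of each is uncertain to that extent. TLR6 read 5.44, 5.36 and 5.60 in scramble untreated arrays and 4.76, 5.03 and 4.54 with UV-PAPC. The groups did not overlap. TLR6 fell by 0.68 (SE 0.13, difference -0.68, 95% interval -0.95 to -0.41, limma adjusted p = 0.00287). The UV-PAPC group mean was 4.78, below the mark of 4.92 for dim probe sets, so no fold is given. Under OLR1 siRNA TLR6 read 4.94, 5.04 and 5.34 in untreated and 4.67, 4.99 and 4.98 in UV-PAPC arrays. Here the groups overlapped, and the difference was -0.22 (95% interval -0.49 to 0.05, limma adjusted p = 0.384). The difference between these 2 responses was 0.46 (95% interval 0.08 to 0.84), with an unadjusted p of 0.0208 and an adjusted p of 0.904 in limma, so a different response under the 2 siRNAs was not called.

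The untreated arrays with OLR1 siRNA all lay below the scramble untreated ones for TLR6, at a difference of -0.36 (95% interval -0.63 to -0.09). This missed the threshold (limma adjusted p = 0.0922). It passed with array weights (-0.37, adjusted p = 0.0485) and without OLR1 siRNA untreated replicate 3, the highest of its group (-0.47, adjusted p = 0.0347, both limma). With UV-PAPC the siRNA groups overlapped, at a difference of 0.10 (limma adjusted p = 0.643).

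TLR1, a dim probe set (mean 4.32, below the mark of 4.92), read 4.42, 4.38 and 4.50 in scramble untreated arrays and 4.16, 4.18 and 3.95 with UV-PAPC. The groups did not overlap, and the difference was -0.34 (SE 0.094, 95% interval -0.54 to -0.14, limma adjusted p = 0.0371), with no fold given for so dim a signal. The call was lost when any of 5 arrays was left out. Without scramble untreated replicate 1, 2 or 3 the differences were -0.34, -0.37 and -0.31 (limma adjusted p = 0.0969, 0.0604 and 0.137). Without scramble UV-PAPC replicate 1 or 3 they were -0.37 and -0.26 (limma adjusted p = 0.0585 and 0.165). It was also lost with all table entries tested (limma adjusted p = 0.0989). Under OLR1 siRNA TLR1 read 4.44, 4.60 and 4.35 in untreated and 4.48, 4.28 and 4.14 in UV-PAPC arrays, which overlapped, with a difference of -0.16 (limma adjusted p = 0.377). The siRNA differences of TLR1 were 0.03 in untreated and 0.20 in UV-PAPC cells, the latter with limma adjusted p = 0.172.

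TLR2 (Entrez 7097, chr4:153684280-153710637), the partner of TLR1 and TLR6, read 4.52, 4.43 and 4.62 in scramble untreated arrays and 4.34, 4.57 and 4.14 in scramble UV-PAPC arrays. With OLR1 siRNA it read 4.34, 4.38 and 4.07 in untreated and 4.46, 4.21 and 4.54 in UV-PAPC arrays. The UV-PAPC groups overlapped under both siRNAs, with differences of -0.17 (SE 0.11, limma adjusted p = 0.46) and 0.14 (limma adjusted p = 0.586). In untreated cells all 3 arrays with OLR1 siRNA lay below the scramble arrays, by -0.26, which did not pass (95% interval -0.50 to -0.02, limma adjusted p = 0.185). TLR2 had one of the wider spreads between replicates, with a residual SD of 0.169 against a median of 0.101 over all genes.

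Neither co-receptor of TLR4 passed a comparison, and both had low signals. With a mean of 5.10, CD14 lay just above the mark of 4.92, so whether its signal could show a change is uncertain. CD14 (Entrez 929, chr5:140631732-140633701), which hands lipopolysaccharide to the receptor, read 5.07, 5.07 and 5.09 in scramble untreated arrays and 5.21, 4.97 and 5.28 with UV-PAPC. With OLR1 siRNA it read 5.15, 5.15 and 5.12 in untreated and 5.06, 5.13 and 4.92 in UV-PAPC arrays. The UV-PAPC differences were 0.07 (95% interval -0.10 to 0.24) and -0.10, neither past the threshold (limma adjusted p = 0.716 and 0.556). The 2 untreated groups of CD14 did not overlap, yet they were only 0.06 apart, with limma adjusted p = 0.719. LY96, which forms the lipopolysaccharide-binding unit with TLR4, read 2.93 to 3.23 over the 12 arrays, its groups overlapped in all 4 comparisons, and its differences ran from 0.00 to 0.04. At this signal, below the median of the olfactory receptor genes, LY96 was not measurable above background.

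MYD88 (Entrez 4615, chr3:38138661-38143022), the shared adaptor, was bright and even. It read 8.62, 8.49 and 8.41 in scramble untreated arrays and 8.47, 8.38 and 8.26 with UV-PAPC. With OLR1 siRNA it read 8.51, 8.39 and 8.36 in untreated and 8.41, 8.33 and 8.45 in UV-PAPC arrays. All groups overlapped. Its UV-PAPC differences were -0.14 (95% interval -0.30 to 0.03, limma adjusted p = 0.375) and -0.02 (limma adjusted p = 0.939). Its siRNA differences were -0.09 in untreated and 0.03 in UV-PAPC cells.

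**Figure D2:**
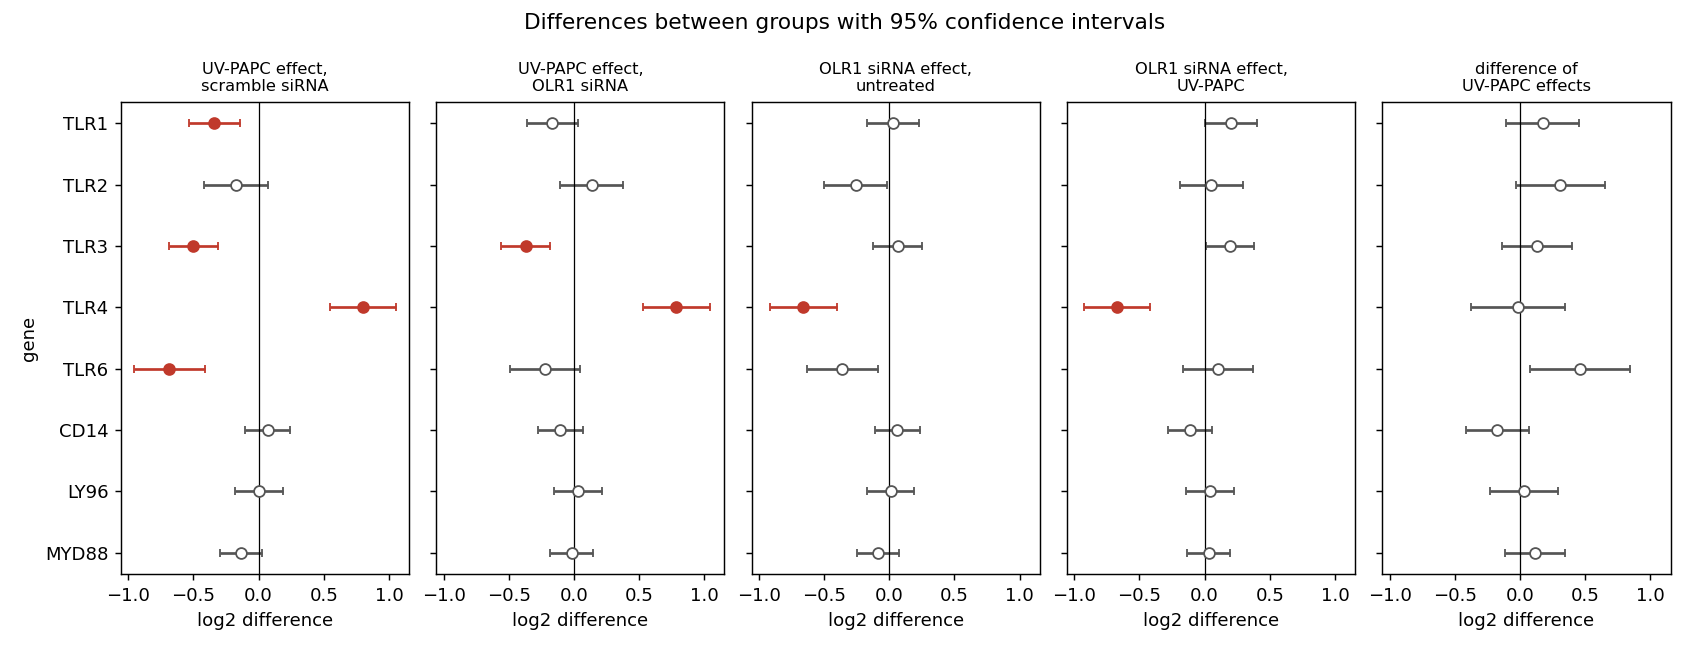
Log2 difference (horizontal axis) of each gene in the 5 comparisons, with 95% confidence intervals from the limma fit; filled red points passed an adjusted p of 0.05. TLR4 is the gene whose interval excludes 0 by the most in each of the 4 comparisons between groups, to the right for UV-PAPC (0.80 and 0.79) and to the left for OLR1 siRNA (-0.66 and -0.67).

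Under scramble siRNA 4 of the 8 members passed the UV-PAPC comparison, 1 higher and 3 lower, where 7.31% of all genes passed, 2.67% higher and 4.64% lower. For the same 4 members the groups did not overlap, as for 24.1% of all genes. Under OLR1 siRNA 2 members passed, TLR4 higher and TLR3 lower, against 6.71% of all genes (3.46% higher and 3.25% lower), and 2 did not overlap, against 23.7%. For OLR1 siRNA in untreated cells TLR4 alone passed, against 9.71% of all genes (5.29% higher and 4.42% lower), and 4 members did not overlap (TLR2, TLR4, TLR6 and CD14), against 28.7%. For OLR1 siRNA in UV-PAPC cells TLR4 alone passed and alone did not overlap, against 12.5% of all genes that passed (7.94% higher and 4.56% lower) and 30.8% that did not overlap. The median difference of the 8 members was -0.15 and -0.06 for UV-PAPC and -0.04 and 0.05 for OLR1 siRNA, where all genes had medians between -0.0134 and -0.00142. In the difference of the UV-PAPC responses 0% of all genes passed in limma, while 1004 genes and 1 member, TLR6, had an unadjusted p under 0.05. Neighbouring comparisons share arrays, since the scramble untreated arrays serve both the first UV-PAPC and the first siRNA comparison, so their results are not independent of each other.

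The rest of the pathway was followed through 9 lists with 117 genes, of which 106 were measured. Of these, 20 (18.9%) passed the UV-PAPC comparison under scramble siRNA (5 higher, 15 lower), against 7.31% of all genes, with a median difference of -0.03. Under OLR1 siRNA 16 (15.1%) passed (6 higher, 10 lower), against 6.71%. For OLR1 siRNA 23 (21.7%) passed in untreated cells (9 higher, 14 lower), against 9.71%. In UV-PAPC cells 15 (14.2%) passed (10 higher, 5 lower), close to the 12.5% of all genes. The 23 became 14 without OLR1 siRNA untreated replicate 2, where calls among all 18417 genes went from 1789 to 1101. The 15 became 9 without scramble UV-PAPC replicate 2, 8 without OLR1 siRNA UV-PAPC replicate 1, 9 without OLR1 siRNA UV-PAPC replicate 2 and 8 with only the arrays compared. The difference of the responses gave 0 calls among the 106 in limma and 14 unadjusted p-values under 0.05. The calls of 15 of the 20, 12 of the 16, 13 of the 23 and 6 of the 15 held under every alternative run, and the genes named below with a difference as risen or fallen are among those unless stated otherwise.

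None of the 3 other measured receptors, TLR7, TLR8 and TLR9, passed any comparison. Of 10 co-receptors and receptor chaperones none passed with UV-PAPC. With OLR1 siRNA 1 passed in each treatment (10%, against 9.71% and 12.5% of all genes). This was the endosomal receptor chaperone UNC93B1, higher by 0.25 in untreated (limma adjusted p = 0.0232) and 0.21 in UV-PAPC cells (limma adjusted p = 0.0478). These calls held under 18 and 5 of 23 alternatives; the first was lost without replicate 1 or 2 of either untreated group, and the second without each of 11 of the 12 arrays. With the mean of the gene's probe sets in place of the brightest the differences were 0.06 and 0.0077 (limma adjusted p = 0.721 and 0.961), so the higher signal was that of 1 probe set and not of their mean. TIRAP, the bridging adaptor that brings MYD88 to TLR2 and TLR4, rose with UV-PAPC under OLR1 siRNA by 0.42 (limma adjusted p = 0.00494). Under scramble siRNA its difference was 0.20 (limma adjusted p = 0.201), and the difference of the 2 responses was 0.23, which was not called (limma adjusted p = 0.904). TICAM1, the TRIF adaptor of TLR3 and TLR4, and SARM1 passed no comparison.

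Of 21 kinases and ubiquitin ligases 1 was higher and 3 were lower with UV-PAPC under scramble siRNA (19.0%, against 7.31% of all genes). AZI2, a scaffold of the kinase TBK1, rose by 0.40 (limma adjusted p = 0.00166), and IKBKE, a kinase of the interferon arm, fell by 0.38 (difference -0.38, limma adjusted p = 0.00381). Under OLR1 siRNA AZI2 alone passed, at 0.36 (limma adjusted p = 0.00375), which is 4.76% of the list against 6.71% of all genes. With OLR1 siRNA 3 were higher and 2 lower in untreated cells (23.8%, against 9.71%). In UV-PAPC cells 6 were higher and none lower (28.6%, against 12.5%). TAB2, which links TRAF6 to the kinase TAK1, rose by 0.39 and 0.48 (limma adjusted p = 0.00412 and 0.00106). CHUK, a catalytic subunit of the IkB kinase, rose by 0.46 in UV-PAPC cells (limma adjusted p = 0.00461), as did TBK1, which phosphorylates IRF3, by 0.49 (limma adjusted p = 0.000919). IKBKE fell by 0.47 in untreated cells (difference -0.47, limma adjusted p = 0.000717).

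Among 15 negative regulators 1 was higher and 3 were lower with UV-PAPC under scramble siRNA, and 2 were higher and 3 lower under OLR1 siRNA. These are 26.7% and 33.3% of the list, against 7.31% and 6.71% of all genes. TNFAIP3 (A20), which removes activating ubiquitin chains and is itself an NF-kB target, read 8.75, 8.85 and 8.72 in scramble untreated and 7.85, 7.95 and 7.74 in scramble UV-PAPC arrays. It fell by 0.93 (difference -0.93, limma adjusted p = 1.63e-06), and under OLR1 siRNA by 0.58 (difference -0.58, limma adjusted p = 0.000185). NFKBIA, the IkB-alpha inhibitor and another NF-kB target, fell in both, with differences of -0.52 and -0.35 (limma adjusted p = 6.17e-05 and 0.00203). DUSP1, a phosphatase of MAP kinases, went the other way: it rose by 0.95 and 1.10 (limma adjusted p = 1.81e-05 and 3.46e-06). With OLR1 siRNA 2 were higher and 3 lower in untreated cells (33.3%, against 9.71% of all genes). In UV-PAPC cells 2 were higher and 1 lower (20%, against 12.5%). IL1RL1, the IL-33 receptor, rose by 0.58 and 0.67 (limma adjusted p = 0.00157 and 0.000605), and CYLD was higher in both. In untreated cells TNFAIP3 (difference -0.40, limma adjusted p = 0.00327), TNIP1 and DUSP1 fell. DUSP1 differed by -0.44 (limma adjusted p = 0.0101), a call lost without scramble untreated replicate 3. SIGIRR was lower in UV-PAPC cells.

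Of 10 transcription factors 1 was higher and 2 were lower with UV-PAPC under each siRNA (30%, against 7.31% and 6.71% of all genes). IRF8 rose by 0.63 and 0.52 (limma adjusted p = 0.000497 and 0.00241). IRF1 fell, with differences of -0.47 and -0.54 (limma adjusted p = 0.00381 and 0.00129). NFKB1, which encodes the p50 subunit, fell with UV-PAPC, with differences of -0.49 and -0.35 (limma adjusted p = 0.000501 and 0.00788), the second lost without OLR1 siRNA untreated replicate 1. With OLR1 siRNA 1 was higher and 1 lower in each treatment (20%, against 9.71% and 12.5% of all genes). NFKB1 rose by 0.50 in untreated and 0.65 in UV-PAPC cells (limma adjusted p = 0.000404 and 5.19e-05). IRF5 fell, with differences of -0.34 and -0.23 (limma adjusted p = 0.00437 and 0.0355). The second call of IRF5 held in 11 of 22 alternatives.

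Most output genes that passed were lower. Of all genes that passed, more were also lower than higher for UV-PAPC under scramble siRNA (4.64% against 2.67%), while in the other 3 comparisons more were higher. Of 22 genes of the MYD88 arm none was higher in any of the 4 comparisons, and 3, 1, 4 and 2 were lower. These are 13.6%, 4.55%, 18.2% and 9.09% of the list. Of all genes 7.31%, 6.71%, 9.71% and 12.5% passed in either direction, and 4.64%, 3.25%, 4.42% and 4.56% were lower. The shares from 1 and 2 genes thus lay below that of all genes in either direction. IL1B, the cytokine interleukin-1 beta, read 7.07, 6.94 and 6.82 in scramble untreated and 6.21, 6.22 and 6.04 in scramble UV-PAPC arrays. With OLR1 siRNA it read 6.37, 6.10 and 6.10 in untreated and 5.85, 5.67 and 5.76 in UV-PAPC arrays. IL1B fell in all 4 comparisons, with differences of -0.79 and -0.43 for UV-PAPC (limma adjusted p = 4.13e-05 and 0.00686) and -0.76 and -0.39 for OLR1 siRNA (limma adjusted p = 5.65e-05 and 0.0102). Its arrays thus stood in another order than those of TLR4, with the highest signals in scramble untreated cells and the lowest in OLR1 siRNA cells with UV-PAPC. TNF, IL6 and CXCL8 passed none of the comparisons.

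Of 15 genes of the TRIF arm and the interferon response 4 were lower and none was higher with UV-PAPC under each siRNA. This is 26.7% of the list, against 7.31% of all genes under scramble and 6.71% under OLR1 siRNA. Among the 4 were IFIT1 under scramble siRNA (group means 4.71 to 4.23) and CXCL11 under OLR1 siRNA (4.28 to 3.91). Both lay below the mark of 4.92 for dim probe sets. IFIT2, an interferon-induced RNA-binding protein, read 6.63, 6.47 and 6.60 in scramble untreated and 5.50, 5.79 and 5.38 in scramble UV-PAPC arrays, a difference of -1.01 (limma adjusted p = 3.29e-05). Under OLR1 siRNA its difference was -0.51 (limma adjusted p = 0.00978), lost without OLR1 siRNA untreated replicate 2. IFIT3 fell under both siRNAs, with differences of -0.89 and -0.78 (limma adjusted p = 6.8e-05 and 0.000247). RIGI, a cytosolic sensor of viral RNA, fell under both siRNAs, with differences of -0.70 and -0.35 (limma adjusted p = 4.26e-05 and 0.0132). The second was lost without OLR1 siRNA untreated replicate 2 or 3, without OLR1 siRNA UV-PAPC replicate 2 and with only the arrays compared. With OLR1 siRNA 1 of the 15 was higher and 4 were lower in untreated cells (33.3%, against 9.71% of all genes). The higher one was the dim CXCL11, whose call held in 15 of 22 alternatives. RIGI (difference -0.46, limma adjusted p = 0.00158) and IFIT2 (difference -0.49, limma adjusted p = 0.00993) were among the lower ones. In UV-PAPC cells 1 was lower (6.67%, against 12.5% of all genes). IFNB1 itself passed no comparison. Of 9 genes for endogenous ligands 2 were higher with UV-PAPC under scramble siRNA and 1 under OLR1 siRNA, and none was lower. These are 22.2% and 11.1% of the list, against 7.31% and 6.71% of all genes. SAA1, 1 of the 2, was dim, with group means of 3.53 untreated and 4.00 with UV-PAPC. Its call held in 13 of 22 alternatives. The chaperonin HSPD1 (Hsp60) rose with UV-PAPC by 0.55 and 0.66 (limma adjusted p = 8.22e-05 and 1.42e-05).

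**Figure D3:**
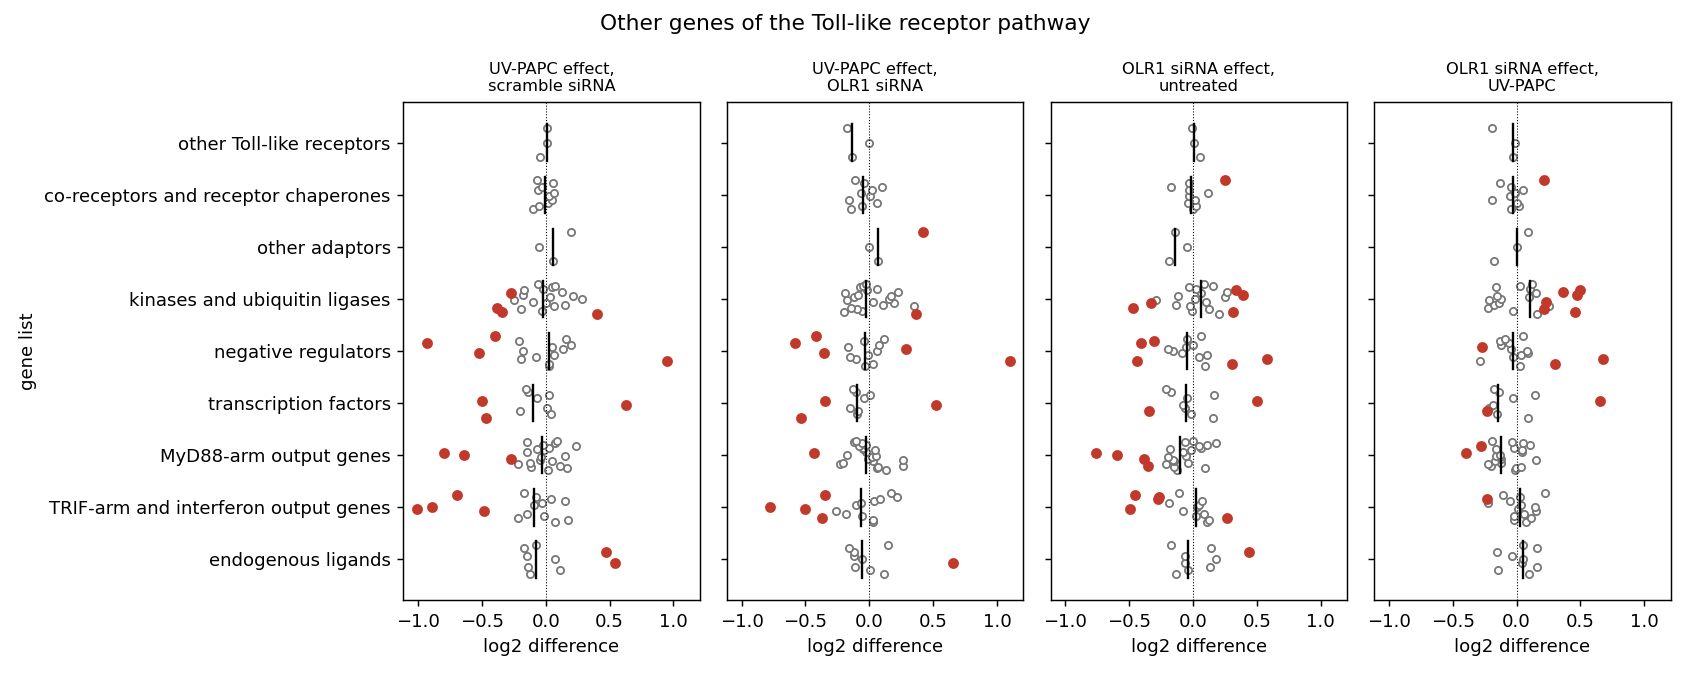
Log2 difference (horizontal axis) of each measured gene of the 9 pathway lists (rows) in the 4 comparisons between groups; filled red points passed an adjusted p of 0.05 in limma, open points did not, and black bars are list medians. The output genes that passed lie mostly to the left of 0, and DUSP1 (0.95 and 1.10) is the point farthest to the right in both UV-PAPC panels.

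For each of the 4 members that passed a comparison, the genes most like it were those with the highest Pearson correlation over the 12 arrays. The arrays share their groups, so these values describe the pattern over 4 conditions and carry no p. ZSWIM6 (r = 0.985), the kinase STK17B (0.982) and AVPI1 (0.978) were closest to TLR4. STK17B rose with UV-PAPC by 0.52 and 0.59 and fell with OLR1 siRNA in untreated and UV-PAPC cells (differences -0.47 and -0.40). ADGRF1 (r = 0.980), the fatty acid elongase ELOVL6 (0.974) and the desmosomal plakophilin PKP2 (0.973) were closest to TLR3. ADGRF1, an adhesion G protein-coupled receptor, fell with UV-PAPC, with differences of -0.90 and -0.77. RANBP6 (r = 0.952), the vesicle GTPase RAB27A (0.952) and FAM13B (0.934) were closest to TLR1. SLC44A3 (r = 0.948), ESS2 (0.940) and CBLC (0.917) were closest to TLR6, which matched its nearest genes less closely than TLR4 and TLR3 did.

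The members also differed in how well their replicates held together. The residual SD was 0.195 for TLR6, 0.181 for TLR4 and 0.169 for TLR2, at percentiles 96.7, 94.9 and 92.6 of all genes. It was 0.128 for TLR1, 0.116 for TLR3, 0.111 for LY96, 0.0986 for CD14 and 0.0901 for MYD88, the last at percentile 38.1. Over all 12 arrays the range was 1.79 log2 units for TLR4, 1.06 for TLR6 and 0.73 for TLR3, and 0.36 for both CD14 and MYD88.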

How the data were processed

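Total RNA of SZ95 sebocytes (100 ng per sample, per the labels' protocols) was labelled and hybridised to 12 Affymetrix arrays, 3 per group. The authors' deposited values are log2 signals, one per probe set. Per the submitters' processing notes the tools were RMA and Affymetrix Expression Console (1.3.1.187), with no settings named. RMA summarises the probes of a set after quantile normalization and tends to understate large differences. No source used here gives the siRNA sequences or the duration of UV-PAPC exposure.

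The probe annotation, which can be old, gave 19460 of 33297 table entries 1 symbol, 1754 several and 12083 none. Each gene was represented by its brightest probe set, which gave 18417 genes; where probes lie was not used. In limma 3.58.1 (R 4.3.3) a mean per group was fitted over the 12 arrays, with default eBayes (8 residual and 7.66 prior degrees of freedom). Tests were two-sided, with Benjamini-Hochberg adjustment over all genes in each of 5 comparisons, and the threshold was 0.05. The fit was tested on simulated data. Folds are 2 to the power of the absolute log2 difference, with 95% intervals. The labels do not say that replicates were separate cultures: p-values then reflect the spread between these samples alone, possibly a technical one, and the number of arrays limits precision.

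Members and gene lists were chosen with earlier results of these data known. The text names all members, OLR1, examples with the lowest p among list genes past the threshold, some list genes that passed nowhere, and the 3 genes most correlated with each member that passed. Promoters came from RefSeq (GRCh38.p14), whose table matched 7 of the 9 members. The alternatives tried were a mean-variance trend, robust eBayes, weighted arrays, only genes above the median signal, averaged probe sets, all entries, median centring, a second quantile step, cyclic loess, only the arrays compared, a replicate block and leaving out each array. Plots used Python 3.11.15 and matplotlib 3.10.9.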

Additional observations from a re-analysis of the deposited data

How the results depend on the processing

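TLR4 passed the threshold in its 4 comparisons under all 23 alternatives, with UV-PAPC differences of 0.67 to 0.98 under scramble and 0.72 to 0.85 under OLR1 siRNA, and siRNA differences of -0.69 to -0.62 in untreated and -0.85 to -0.54 in UV-PAPC cells. The fall of TLR3 under scramble siRNA passed in all 23 (-0.54 to -0.46) and that of TLR6 in all 22 that could test it (-0.81 to -0.56). TLR3 under OLR1 siRNA passed in 18 of 23 and TLR1 under scramble siRNA in 16 of 22. No called difference of a member or of a pathway list gene changed sign.

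The number of members past the threshold for UV-PAPC under scramble siRNA went from 4 to 2 with only the genes above the median mean signal. There 3 members were left, and 1652 of 9208 genes passed, against 1347 of 18417 in the main fit. Under OLR1 siRNA it went from 2 to 1 with all table entries and to 1 with only the arrays compared. All-gene calls there went from 1236 to 852 and 1013. For OLR1 siRNA in untreated cells it went from 1 to 2 with array weights, where all-gene calls went from 1789 to 2295. With 1 array left out, the counts ranged from 3 to 4 for UV-PAPC under scramble siRNA and from 1 to 2 under OLR1 siRNA. They ranged from 1 to 2 for OLR1 siRNA in untreated cells and from 1 to 2 in UV-PAPC cells. All-gene calls in these fits ranged, in the same order, from 868 to 1340, 865 to 1397, 1101 to 2055 and 1267 to 2254.

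No clear pairing of arrays by replicate number was seen. The deviations of same-numbered arrays correlated at -0.22 to 0.26, and 6 of 18 pairs were above 0.1. Arrays of different number correlated at -0.26 to 0.27, with 8 of 36 pairs above 0.1. Of the 12 arrays 4 correlated best with their own number. With the replicate block the members past the threshold stayed at 4, 2, 1, 1 and 0. The list genes were 19, 16, 22, 13 and 0. Of all 18417 genes 1309, 1220, 1756, 2309 and 0 passed in that fit. In the main fit these counts were 1347, 1236, 1789, 2302 and 0.

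Counts over all genes moved by over 1.5 times in some fits. For UV-PAPC under scramble siRNA 1347 became 893 with all entries and 868 without scramble untreated replicate 1. For OLR1 siRNA in untreated cells 1789 became 1113, 1158 and 1101 without scramble untreated replicates 2 and 3 and OLR1 siRNA untreated replicate 2. In UV-PAPC cells 2302 became 1517 with all entries, 1372 without scramble UV-PAPC replicate 3 and 1267 without OLR1 siRNA UV-PAPC replicate 1, and the share of higher calls went from 63.5% to 75.5% with median-centred arrays. The cause of these changes was not tested. TLR1, TLR2 and LY96 are limited by signals near those of the dim reference genes. TLR6 in UV-PAPC cells (group means 4.78 and 4.88) and the list genes IFIT1, CXCL11 and SAA1 also lay below the mark of 4.92. CD14 lay just above it.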

Other observations

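The replicates of CD14 lay closer together in untreated than in UV-PAPC cells. Its SD was 0.0116 and 0.0147 in the untreated groups with scramble and OLR1 siRNA, and 0.164 and 0.108 in the groups with UV-PAPC (n = 3 each). The same held for TLR4 (0.057 and 0.067 untreated, 0.325 and 0.135 with UV-PAPC) and for TLR1 (0.062 and 0.123, 0.130 and 0.170). It did not hold under both siRNAs for TLR2, TLR3, TLR6, LY96 and MYD88. With groups of this size the difference in spread was not tested.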
